A study of Mus musculus with 6 samples.

Results

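Interferon response genes are the genes that a cell switches on when interferon binds its receptors. Of the 26586 genes in the deposited count table, 33 were taken for this set by their gene names, as known interferon-stimulated genes. The choice was made with earlier results of these data known. All 33 were in the table, and all 33 passed the filter on low counts that left 16896 genes for testing. They cover the IFIT proteins, the OAS family, the MX, guanylate-binding and IRG GTPases, other antiviral effectors, the ISG15 system, RNA sensors and RNA-binding enzymes, transcription factors and 2 PARP enzymes.

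Type I interferons signal through the receptor pair Ifnar1 and Ifnar2 and the kinases Jak1 and Tyk2. These activate STAT factors, Stat2 among them, which join Irf9 in the complex ISGF3, and ISGF3 binds the interferon-stimulated response element (ISRE) in the promoters of its targets. Interferon gamma acts through Ifngr1, Ifngr2, Jak1 and Jak2, and its signal reaches genes by a different element named GAS. Many of these genes also have a low level in tissue that is not infected, and the uterine epithelium of the mouse is known to make interferon epsilon.

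The study sorted cells of uterine epithelial isolates by a fluorescent reporter of Axin2, a target gene of Wnt signalling, and sequenced RNA from 2 fractions of 3 mice. The libraries labelled Axin2+ (n = 3) hold GFP+ cells and those labelled Axin2- (n = 3) hold GFP- cells. All mice carried Axin2rtTA and tetOH2BJGFP, so GFP depends on both transgenes and on doxycycline. They are called Axin2+ and Axin2- libraries below, after their labels. All had their ovaries removed when 4 weeks old and, after a rest of 2 weeks, received doxycycline; uteri were taken 4 days after it, at an age of 6 weeks. No interferon, virus or other immune stimulus is named in the labels. Each library carries a mouse number, but the protocol also says that cells were pooled, so p-values measure the spread between these libraries, which may be technical. Values below are in the order of mice 1, 2 and 3.

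Total counts were between 49714402 and 59597315 per library. Axin2 mRNA was 165, 243 and 299 CPM (counts over library size, scaled by TMM factors) in the libraries labelled Axin2+, against 369, 357 and 356 CPM in those labelled Axin2-. It was lower in the libraries labelled Axin2+ of all 3 mice without passing the threshold (log2 fold change -0.61 ± 0.21 SE, edgeR adjusted p = 0.071), so every direction below is one between libraries named by their labels. Against the labelled cell type, markers of other cells were present in both fractions, and they differed between them. The summed level of 15 epithelial markers such as Krt8, Krt18 and Krt19 was 2714 to 3909 CPM in libraries labelled Axin2+, against 243 to 350.5 CPM in those labelled Axin2-, and all 15 rose. For 10 macrophage markers, led by Lyz2, Mrc1 and C1qa, the sum was 666 to 3737 CPM in Axin2+ libraries against 45.2 to 288 CPM in Axin2- libraries, and 9 rose. The 11 stromal markers, led by Col3a1, Col1a1 and Dcn, summed to 2947 to 4421 CPM in Axin2+ libraries against 10849 to 22791 CPM in Axin2- libraries, and all 11 fell. All 10 smooth muscle markers, led by Myh11, Mylk and Des, also fell, with sums of 414 to 667 CPM in Axin2+ libraries against 3369 to 8183 CPM in Axin2- libraries. Of 11 T and NK cell markers found, led by Il2rb, Lck and Cd3e, 8 fell, with sums of 4.02 to 7.38 CPM in Axin2+ libraries against 48.9 to 56.3 CPM in Axin2- libraries. Sums of the fractions overlapped for 12 endothelial markers (298 to 430.2 CPM in Axin2+ libraries against 251 to 313 CPM in Axin2- libraries, 7 rose), 4 mesothelial markers (157 to 440.3 CPM in Axin2+ libraries against 165 to 217 CPM in Axin2- libraries, 3 rose and 1 fell), 7 dendritic cell markers (21.3 to 33 CPM in Axin2+ libraries against 24.5 to 36.1 CPM in Axin2- libraries, 1 fell), 3 B cell markers (0.736 to 3.33 CPM in Axin2+ libraries against 3.2 to 16.0 CPM in Axin2- libraries, 1 fell) and 4 neutrophil markers (0.298 to 7.67 CPM in Axin2+ libraries against 0.140 to 1.09 CPM in Axin2- libraries). The neutrophil marker Ly6g was at 0 in all libraries labelled Axin2-. In such bulk libraries fewer cells of a type and less RNA per cell cannot be told apart, and the part of cell makeup in the results below was not tested.

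Of the 33 interferon response genes, 9 differed between the fractions at an adjusted p under 0.05 in edgeR's quasi-likelihood test, which is 27.3% of them. Of all 16896 genes tested, 4618 did, which is also 27.3%, so the share of called members is the background share. Higher in the libraries labelled Axin2+ were 7 members (21.2%, against 14.5% of all genes): the oligoadenylate synthetases Oas1a and Oas2, the apoptosis regulator Xaf1, the ubiquitin ligase Trim25, the RNA-activated kinase Eif2ak2, the RNA editing enzyme Adar and the ISGF3 subunit Irf9. Lower were 2 members (6.06%, against 12.8% of all genes): Ifit2 and the nucleotide kinase Cmpk2. The other 24 members, with Isg15, Mx1, Mx2, Rsad2, Irf7 and Ifit1 among them, did not pass. The median log2 fold change over the 33 members was 0.17, beside -0.01 over all genes tested, and it was above 0 for 22 members (66.7%) and for 49.5% of all genes. The median size of the log2 fold change without its sign was 0.34 for the members and 0.52 for all genes. Without the Axin2- library of mouse 1, 4 members were higher, and 1 was lower without any 1 of the Axin2+ libraries of mice 2 and 3 or the Axin2- libraries of mice 1 and 2. Of all genes, 18% were called without the Axin2- library of mouse 1 and 22.4% without that of mouse 2. Without the Axin2+ libraries of mice 2 and 3 these shares were 14.6% and 23.6%. With the mouse as a block, where 23.4% of all genes were called, 7 members were higher and 1 was lower. With libraries scaled by their total counts alone, 9 were higher and 1 lower, and 67.4% of all calls were higher, against 53% with TMM; that scaling gave a median log2 fold change of 0.34 for the members and 0.16 for all genes.

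**Figure D1:**
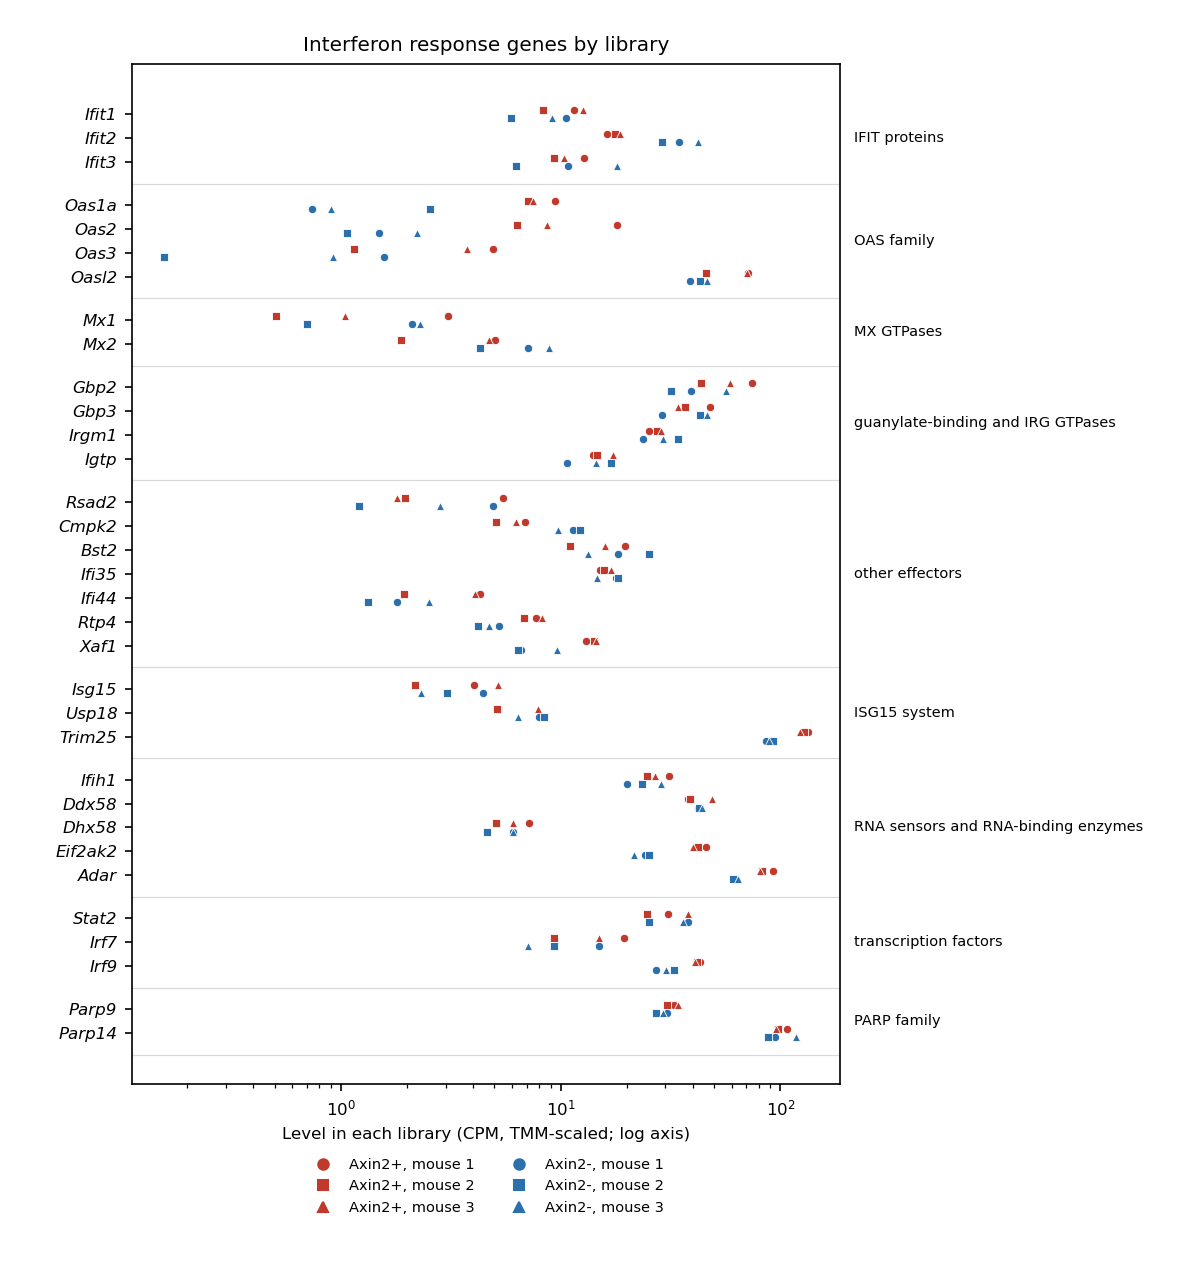
Level of each of the 33 interferon response genes in every library, in CPM scaled by TMM factors on a log axis, grouped by role; red marks are the 3 libraries labelled Axin2+ and blue marks the 3 labelled Axin2-, with 1 symbol per mouse. Oas1a and Oas2 have a clear gap between red and blue, the marks of Ifit2 are reversed in order, and those of Mx1 and Rsad2 are mixed.

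**Figure D2:**
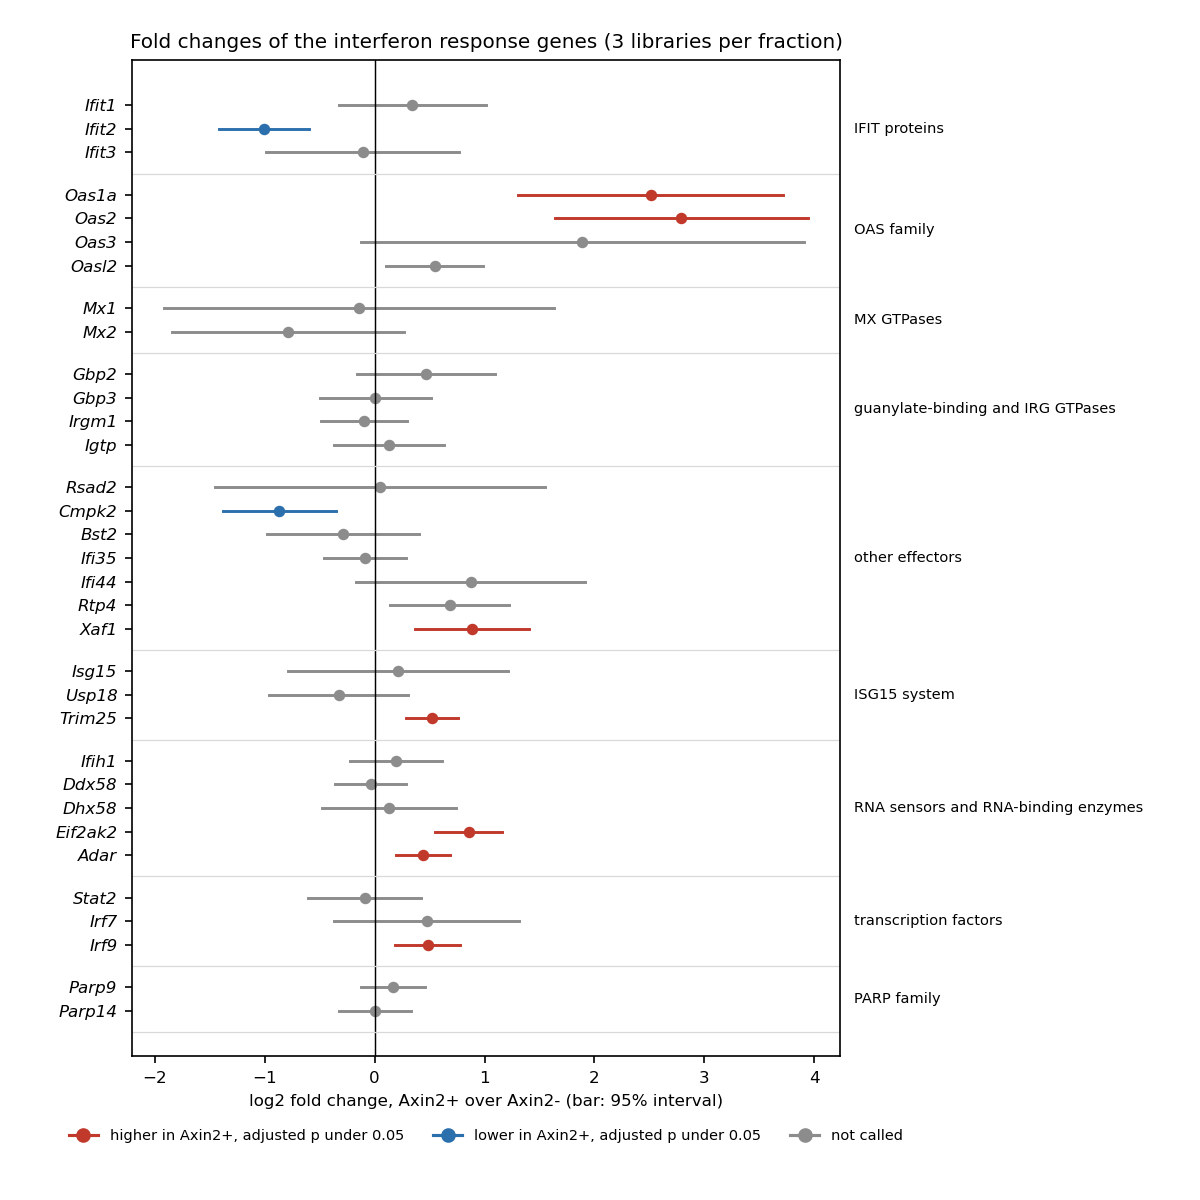
Log2 fold change of each member, libraries labelled Axin2+ over those labelled Axin2-, with its 95% interval from the edgeR fit (3 libraries per fraction); red marks the 7 members higher and blue the 2 lower at an adjusted p under 0.05, grey the 24 not called. The largest values are those of Oas2 (2.79) and Oas1a (2.51), and the interval of Oas3 is the widest.

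The OAS family held the largest differences. These enzymes bind double-stranded RNA and make short oligoadenylates that switch on RNase L, which then cuts RNA. Oas1a (ENSMUSG00000052776, chromosome 5, 120896256 to 120907521, minus strand, GRCm38) stood at 9.40, 7.10 and 7.52 CPM in the libraries labelled Axin2+, against 0.739, 2.55 and 0.906 CPM in those labelled Axin2-. Every library labelled Axin2+ was above every one labelled Axin2-, and the Axin2- library of mouse 2 was the highest of its fraction. Oas1a rose by a log2 fold change of 2.51 ± 0.51 SE (95% interval 1.31 to 3.72, edgeR adjusted p = 0.0119). Oas2 (ENSMUSG00000032690, chromosome 5, 120730333 to 120749853, minus strand) had 18.1, 6.32 and 8.64 CPM in the libraries labelled Axin2+, against 1.5, 1.07 and 2.22 CPM in those labelled Axin2-. The groups did not overlap, and mouse 2 was the lowest in both fractions. The log2 fold change of Oas2 was 2.79 ± 0.49 SE (95% interval 1.64 to 3.94, edgeR adjusted p = 0.00683). Both calls held in all 13 alternative fits, with log2 fold changes of 2.23 to 3.28 for Oas1a and 2.23 to 3.12 for Oas2.

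Oas3 and Oasl2, the other 2 members of the family, did not pass. Oas3 was low, at 4.93, 1.15 and 3.76 CPM in the libraries labelled Axin2+, against 1.57, 0.157 and 0.927 CPM in those labelled Axin2-. The groups overlapped, because the Axin2+ library of mouse 2 was below the Axin2- library of mouse 1, while within each mouse the library labelled Axin2+ was the higher. Its log2 fold change was 1.89 ± 0.86 SE (95% interval -0.12 to 3.90, edgeR adjusted p = 0.144). With the mouse as a block in the fit it passed, at 2.13 (edgeR adjusted p = 0.0291). Oasl2, an OAS-like protein, stood at 71.1, 46.0 and 70.1 CPM in the libraries labelled Axin2+ and 38.6, 43.2 and 46.3 CPM in those labelled Axin2-. Its groups overlapped narrowly, by the Axin2+ library of mouse 2 and the Axin2- library of mouse 3. The log2 fold change of Oasl2 was 0.55 ± 0.19 SE (edgeR adjusted p = 0.0683), and it passed with DESeq2 (adjusted p = 0.0483), with library size scaling (0.0261) and without the Axin2+ library of mouse 2 (0.0251).

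The mouse genome holds several near-identical copies of Oas1, and reads that fit more than 1 copy make their counts uncertain. Oas1b, a close neighbour of Oas1a that is not among the 33, was 3.31, 2.81 and 4.95 CPM in the libraries labelled Axin2+, against 2.62, 2.81 and 6.84 CPM in those labelled Axin2- (log2 fold change -0.15, edgeR adjusted p = 0.842). Oas1c, also outside the 33, had a log2 fold change of 1.29 and did not pass (edgeR adjusted p = 0.0952). With DESeq2 Oas1c passed as higher in the libraries labelled Axin2+ (adjusted p = 0.0438). Within each library the ratio of Oas1a counts to Oas1b counts was 2.84, 2.52 and 1.52 in the libraries labelled Axin2+, against 0.281, 0.907 and 0.133 in those labelled Axin2-. The ratio was higher in each library labelled Axin2+ than in any labelled Axin2- (two-sided exact permutation p = 0.1, the smallest that 3 against 3 libraries allow). The ratio of Oas2 to Oasl2 counts was 0.254, 0.137 and 0.123 in Axin2+ libraries against 0.0388, 0.0247 and 0.0480 in Axin2- libraries, again without overlap (two-sided exact permutation p = 0.1). Such ratios within a library do not depend on how libraries are scaled, and they carry the lengths of both genes, so they compare libraries and not the levels of the 2 genes. Oas1a and Oas2 were already apart between the fractions, so the ratios are no separate support for their calls.

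The RefSeq promoters of Oas1a and Oas3 hold the letters of the ISRE core, which is GAAA, any 2 bases and GAAA again (GAAA-NN-GAAA). They are shown for the 160 bases before the RefSeq start of each gene (GRCm38.p6, chr5:120907526-120907685 and chr5:120777660-120777819, both on the minus strand), with each core in capitals, because the 2 genes are neighbours of Oas2, which is not in the promoter table, and the family had the largest fold changes. In Oas1a 2 overlapping cores start 20 and 14 bases before the start, and in Oas3 1 core starts 75 bases before it.
Oas1a: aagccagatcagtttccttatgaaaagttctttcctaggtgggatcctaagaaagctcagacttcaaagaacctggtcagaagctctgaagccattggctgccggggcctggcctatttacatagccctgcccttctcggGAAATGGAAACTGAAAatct
Oas3: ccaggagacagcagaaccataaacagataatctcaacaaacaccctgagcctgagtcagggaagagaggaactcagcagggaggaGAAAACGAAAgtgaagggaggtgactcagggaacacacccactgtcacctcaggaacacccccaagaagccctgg

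The IFIT proteins, which bind foreign or wrongly capped RNA and restrain its translation, did not follow the OAS family. Ifit2 (ENSMUSG00000045932, chromosome 19, 34550694 to 34576419, plus strand) had 16.2, 17.7 and 18.6 CPM in the libraries labelled Axin2+, against 34.7, 28.9 and 42.0 CPM in those labelled Axin2-. All libraries labelled Axin2- were above all libraries labelled Axin2+, with no overlap. Ifit2 fell by 1.01 on the log2 scale (SE 0.17, 95% interval -1.41 to -0.60, edgeR adjusted p = 0.00618), and the call held in all 13 alternative fits. Its neighbours did not pass. Ifit1 was 11.5, 8.29 and 12.7 CPM in the libraries labelled Axin2+, against 10.6, 5.92 and 9.14 CPM in those labelled Axin2- (log2 fold change 0.34 ± 0.28 SE, edgeR adjusted p = 0.408). Ifit3 was 12.7, 9.36 and 10.4 CPM in Axin2+ libraries against 10.8, 6.26 and 18.1 CPM in Axin2- libraries (log2 fold change -0.11 ± 0.37 SE, edgeR adjusted p = 0.855). Both genes overlapped between fractions and were lowest in mouse 2 in each.

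Within each library the counts of Ifit2 over those of Ifit1 were 1.41, 2.13 and 1.47 in the libraries labelled Axin2+, against 3.29, 4.88 and 4.59 in those labelled Axin2-. The ratio was lower in each library labelled Axin2+ than in any labelled Axin2- (two-sided exact permutation p = 0.1, the smallest possible). The counts of Ifit2 over those of Ifit3 were 1.27, 1.89 and 1.79 in Axin2+ libraries against 3.2, 4.62 and 2.33 in Axin2- libraries, also with no overlap (two-sided exact permutation p = 0.1). Ifit2 was already apart between the fractions, so both ratios are no separate support for its call. The 3 promoters also differ in their letters. The 160 bases before the RefSeq start are shown on GRCm38.p6 for Ifit1 (chr19:34640729-34640888, plus strand), Ifit2 (chr19:34550534-34550693, plus strand) and Ifit3 (chr19:34583369-34583528, plus strand), with ISRE cores in capitals. Here the cores lie on the other strand and read TTTC-NN-TTTC. Ifit1 and Ifit3 hold 2 each, starting 104 and 85 bases before the start in Ifit1 and 156 and 122 bases before it in Ifit3. The window of Ifit2 holds none, which says only that these letters are not in it. The table has 2 starts for Ifit2, of which the first is shown, and neither of its promoters holds the core.
Ifit1: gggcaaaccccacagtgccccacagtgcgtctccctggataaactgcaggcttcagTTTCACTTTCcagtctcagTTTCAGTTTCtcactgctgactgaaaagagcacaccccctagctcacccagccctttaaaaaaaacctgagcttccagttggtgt
Ifit2: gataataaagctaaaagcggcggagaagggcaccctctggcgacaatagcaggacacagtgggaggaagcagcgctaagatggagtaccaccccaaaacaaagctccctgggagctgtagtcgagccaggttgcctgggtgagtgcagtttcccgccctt
Ifit3: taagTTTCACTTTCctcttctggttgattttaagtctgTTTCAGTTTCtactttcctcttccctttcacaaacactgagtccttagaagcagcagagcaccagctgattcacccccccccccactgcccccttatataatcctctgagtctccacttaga

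Among the other effectors 1 member rose and 1 fell. Xaf1 (ENSMUSG00000040483, chromosome 11, 72301629 to 72313733, plus strand), which counters the caspase inhibitor XIAP, had 13.0, 14.2 and 14.5 CPM in the libraries labelled Axin2+, against 6.61, 6.40 and 9.60 CPM in those labelled Axin2-. The groups did not overlap, and the libraries labelled Axin2+ lay close together. Xaf1 rose by a log2 fold change of 0.88 ± 0.22 SE (95% interval 0.37 to 1.4, edgeR adjusted p = 0.0247). It did not pass without the Axin2+ library of mouse 2 (edgeR adjusted p = 0.088) or of mouse 3 (0.064), or without the Axin2- library of mouse 1 (0.0678) or of mouse 2 (0.0602).

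Cmpk2 (ENSMUSG00000020638, chromosome 12, 26469204 to 26479837, plus strand), a mitochondrial kinase of pyrimidine nucleotides, had 6.92, 5.10 and 6.29 CPM in the libraries labelled Axin2+, against 11.4, 12.2 and 9.74 CPM in those labelled Axin2-. Again there was no overlap. Cmpk2 fell by 0.87 on the log2 scale (SE 0.22, 95% interval -1.38 to -0.35, edgeR adjusted p = 0.0259). The call was lost with the mouse as a block (edgeR adjusted p = 0.0565), with library size scaling (0.0598) and without the Axin2+ library of mouse 2 (0.102) or 3 (0.0595) or the Axin2- library of mouse 1 (0.0832) or 2 (0.0653). Rsad2 (viperin), which makes a chain-terminating nucleotide and lies beside Cmpk2 in the genome, was 5.49, 1.96 and 1.81 CPM in Axin2+ libraries against 4.94, 1.21 and 2.82 CPM in Axin2- libraries (log2 fold change 0.05 ± 0.64 SE, edgeR adjusted p = 0.965). The 95% interval of -1.46 to 1.55 reaches a 2-fold difference either way. Cmpk2 counts over Rsad2 counts were 1.26, 2.60 and 3.48 in Axin2+ libraries against 2.31, 10.1 and 3.45 in Axin2- libraries, with overlap between the fractions (two-sided exact permutation p = 0.5).

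Rtp4, a chaperone of G protein-coupled receptors, was 7.76, 6.83 and 8.24 CPM in the libraries labelled Axin2+, against 5.27, 4.23 and 4.72 CPM in those labelled Axin2-. Its groups did not overlap, and its log2 fold change of 0.68 ± 0.23 SE missed the threshold (edgeR adjusted p = 0.0647). It passed with DESeq2 (adjusted p = 0.0132) and with library size scaling (0.0357). Ifi44, a cytoplasmic protein of uncertain function, was 4.31, 1.94 and 4.09 CPM in Axin2+ libraries against 1.81, 1.33 and 2.51 CPM in Axin2- libraries, with overlap by mouse 2 (log2 fold change 0.87 ± 0.44 SE, edgeR adjusted p = 0.185). Bst2 (tetherin), which holds budding virus at the cell surface, and Ifi35, a partner of Nmi, had mean levels of 15.5 ± 4.30 and 16.0 ± 0.959 CPM in the libraries labelled Axin2+, against 19.0 ± 5.97 and 16.9 ± 1.98 CPM in those labelled Axin2- (SD, n = 3 each). Neither passed, and the 95% intervals of both stayed within 2-fold either way.

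None of the 6 dynamin-like and immunity-related GTPases passed the test in edgeR, with DESeq2 or in any other alternative fit. In the main edgeR fit none had an unadjusted p under 0.05. Mx1, which traps viral ribonucleoproteins, was 3.07, 0.510 and 1.04 CPM in the libraries labelled Axin2+, against 2.12, 0.699 and 2.29 CPM in those labelled Axin2-. It had the widest spread among the libraries labelled Axin2+, 6.02-fold from the lowest to the highest, and its 95% interval ran from -1.91 to 1.63. Mx2, listed in GENCODE M21 as a polymorphic pseudogene, was 5.05, 1.89 and 4.75 CPM in Axin2+ libraries against 7.08, 4.32 and 8.81 CPM in Axin2- libraries. It was the lower in the library labelled Axin2+ of each mouse, while the groups overlapped (log2 fold change -0.79 ± 0.45 SE, edgeR adjusted p = 0.233). Gbp2 and Gbp3, which coat vacuoles of intracellular pathogens, averaged 58.8 ± 15.4 and 39.7 ± 7.16 CPM in the libraries labelled Axin2+, against 42.5 ± 12.8 and 39.5 ± 9.18 CPM in those labelled Axin2- (SD, n = 3 each). The IRG proteins Irgm1 and Igtp, which regulate the same vacuoles, averaged 27.1 ± 1.77 and 15.3 ± 1.72 CPM in Axin2+ libraries against 29.0 ± 5.17 and 14.0 ± 3.16 CPM in Axin2- libraries (SD, n = 3 each). For Gbp3, Irgm1 and Igtp the 95% interval of the difference lay within 2-fold either way, and for Gbp2, Mx1 and Mx2 it did not.

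In the ISG15 system the ligase rose and the modifier did not pass. Trim25 (ENSMUSG00000000275, chromosome 11, 88999376 to 89020293, plus strand), a ligase for ubiquitin and for ISG15 that acts on the sensor RIG-I, had 133, 128 and 123 CPM in the libraries labelled Axin2+, against 86.1, 92.9 and 88.3 CPM in those labelled Axin2-. The groups were far apart for their spread, with a highest-to-lowest ratio of 1.08 within each fraction. Trim25 rose by a log2 fold change of 0.52 ± 0.10 SE (95% interval 0.29 to 0.76, edgeR adjusted p = 0.00906), and the call held in all 13 alternative fits. Isg15, the ubiquitin-like modifier itself, was 4.05, 2.17 and 5.17 CPM in Axin2+ libraries against 4.45, 3.04 and 2.33 CPM in Axin2- libraries, with the Axin2- libraries inside the range of the Axin2+ libraries (log2 fold change 0.21 ± 0.43 SE, edgeR adjusted p = 0.746). Usp18, which removes ISG15 and also dampens signalling at Ifnar2, was 5.18, 5.12 and 7.87 CPM in Axin2+ libraries against 7.95, 8.42 and 6.40 CPM in Axin2- libraries (log2 fold change -0.33 ± 0.27 SE, edgeR adjusted p = 0.407). The Isg15 promoter is shown because it holds 3 overlapping ISRE cores, the most among the members in the promoter table, beside a level that did not pass. The 160 bases before its RefSeq start (GRCm38.p6, chr4:156200819-156200978, minus strand) have cores starting 78, 72 and 66 bases before the start, in capitals.
Isg15: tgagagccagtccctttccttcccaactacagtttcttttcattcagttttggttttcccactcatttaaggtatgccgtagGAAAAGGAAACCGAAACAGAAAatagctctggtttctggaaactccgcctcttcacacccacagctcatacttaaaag

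The kinase Eif2ak2 and the editing enzyme Adar rose, and the 3 helicase sensors did not pass. Eif2ak2 (PKR, ENSMUSG00000024079, chromosome 17, 78852564 to 78882573, minus strand), a kinase that stops translation when it binds double-stranded RNA, had 45.9, 42.2 and 40.0 CPM in the libraries labelled Axin2+, against 24.1, 25.2 and 21.5 CPM in those labelled Axin2-. There was no overlap, and both fractions were tight. Eif2ak2 had the smallest p among the members, with a log2 fold change of 0.85 ± 0.13 SE (95% interval 0.55 to 1.16, edgeR adjusted p = 0.00395), and the call held in all 13 alternative fits. Adar (ENSMUSG00000027951, chromosome 3, 89715022 to 89753446, plus strand), which turns adenosine into inosine in double-stranded RNA, had 92.2, 82.1 and 80.8 CPM in Axin2+ libraries against 63.1, 61.2 and 63.9 CPM in Axin2- libraries. The lowest library labelled Axin2+ was above the highest labelled Axin2-. Adar rose by a log2 fold change of 0.44 ± 0.11 SE (95% interval 0.19 to 0.69, edgeR adjusted p = 0.0211). Its adjusted p was 0.0619 without the Axin2+ library of mouse 1, 0.068 without that of mouse 2 and 0.0552 without the Axin2- library of mouse 1. Adar overlaps the annotated gene Chrnb2, and the strand setting of the counting is not given in the sources used here.

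The sensors Ifih1 (MDA5) and Ddx58 (RIG-I) and their relative Dhx58 (LGP2), which has no signalling domain of its own, averaged 27.6 ± 3.25, 41.8 ± 5.95 and 6.11 ± 1.04 CPM in the libraries labelled Axin2+. In those labelled Axin2- they averaged 24.1 ± 4.36, 42.9 ± 0.851 and 5.58 ± 0.819 CPM (SD, n = 3 each). Their log2 fold changes were 0.20, -0.04 and 0.13, and all 3 intervals stayed within 2-fold either way.

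Of the 3 transcription factors, Irf9 rose. Irf9 (ENSMUSG00000002325, chromosome 14, 55603571 to 55610030, plus strand), the DNA-binding subunit of ISGF3, had 43.2, 41.9 and 41.0 CPM in the libraries labelled Axin2+, against 27.3, 32.9 and 30.2 CPM in those labelled Axin2-. The groups did not overlap, and the libraries labelled Axin2+ spanned a ratio of only 1.05. The log2 fold change of Irf9 was 0.48 ± 0.13 SE (95% interval 0.19 to 0.78, edgeR adjusted p = 0.0287). The call was lost with the mouse as a block (edgeR adjusted p = 0.0596) and, with values of 0.0609 to 0.1, without any 1 of the Axin2+ libraries or without the Axin2- library of mouse 1 or 3. Irf9 overlaps the annotated gene Rnf31. Its partner Stat2 was 30.7, 24.6 and 37.9 CPM in Axin2+ libraries against 38.1, 25.3 and 36.0 CPM in Axin2- libraries (log2 fold change -0.09 ± 0.22 SE, edgeR adjusted p = 0.791). Irf7, which amplifies type I interferon production, was 19.4, 9.31 and 15.0 CPM in Axin2+ libraries against 15.0, 9.31 and 7.15 CPM in Axin2- libraries (log2 fold change 0.47 ± 0.36 SE, edgeR adjusted p = 0.368). Both overlapped between the fractions.

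The PARP family proteins Parp9 and Parp14, which act on STAT signalling, did not pass. Parp9 was 32.9, 30.5 and 34.4 CPM in the libraries labelled Axin2+, against 30.4, 27.3 and 29.3 CPM in those labelled Axin2-, just without overlap (log2 fold change 0.17 ± 0.13 SE, edgeR adjusted p = 0.357). Parp14 was 108, 97.1 and 95.2 CPM in Axin2+ libraries against 94.6, 87.4 and 118 CPM in Axin2- libraries (log2 fold change 0.00 ± 0.14 SE, edgeR adjusted p = 0.997). The 95% intervals of both lay within 2-fold either way. Parp9 and Rtp4 were the only members whose groups did not overlap and that were not called. Groups did not overlap for 11 members (33.3%), against 47.2% of all genes tested.

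Of the 24 members not called, 14 had a 95% interval of the difference within 2-fold either way, and for 10 the interval reached beyond it (Gbp2, Ifi44, Ifit1, Irf7, Isg15, Mx1, Mx2, Oas3, Rsad2 and Rtp4). For these 10 a 2-fold difference is still allowed by the interval. In the main edgeR fit an unadjusted p under 0.05 was found for 11 members. The library labelled Axin2+ was the higher in all 3 mice for 15 members and the lower in all 3 for 3. These counts are given without the share of all genes tested and are not read as a result about the members. In the authors' deposited table, which lists 15469 genes of which 4664 (30.2%) have an FDR under 0.05, the same 9 members pass in the same directions. That table holds the same counts of the same libraries, and edgeR was among the authors' tools, so it is no separate support.

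Per kilobase of merged exon length, given as the CPM divided by that length in kilobases (RPKM), Gbp2 had the highest mean of the 33 in the libraries labelled Axin2+, at 23.4 RPKM, with 16.9 RPKM in those labelled Axin2-. Trim25 had 22.2 RPKM in Axin2+ and 15.5 RPKM in Axin2- libraries. Bst2 had 17.2 RPKM in Axin2+ and 21.0 RPKM in Axin2- libraries, where its mean was the highest of the 33. At the low end were Oas3, with 0.464 RPKM in Axin2+ and 0.125 RPKM in Axin2- libraries, and Mx1, with 0.407 RPKM in Axin2+ and 0.4495 RPKM in Axin2- libraries. Isg15, a short gene, had 5.03 RPKM in Axin2+ and 4.33 RPKM in Axin2- libraries. The means of the called members in the libraries labelled Axin2+ lay between 1.47 (Cmpk2) and 22.2 RPKM (Trim25). In the libraries labelled Axin2- the called member Oas2 had a mean of 0.359 RPKM, below that of Mx1.

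The members also varied between the libraries of a fraction, and the library of mouse 2 was often the low one. Among the libraries labelled Axin2+, that of mouse 2 was the lowest of 3 for 20 of 33 members (60.6%), against 24.6% of all genes tested. It was the highest for 0 members, against 28% of all genes, while the library of mouse 1 was the highest for 21 (63.6%, against 36.5%). Among the libraries labelled Axin2-, that of mouse 2 was the lowest for 17 members (51.5%, against 36.9% of all genes). In 12 members (36.4%, against 9.45% of all genes) mouse 2 was the lowest in both fractions: Ifit1, Ifit3, Oas2, Oas3, Mx1, Mx2, Gbp2, Ifi44, Rtp4, Dhx58, Stat2 and Parp9. The mice are 3, and the genes of a library are not independent, so these shares carry no test. The protocol also says that cells were pooled, so a low library is not shown to be a trait of its mouse. Over all tested genes, deviations from the fraction means had a correlation of 0.01 between the 2 libraries of mouse 2.

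The spread within a fraction differed among the members. From the lowest to the highest library, Mx1 spanned 6.02-fold in the libraries labelled Axin2+ and 3.27-fold in those labelled Axin2-, Oas3 4.28-fold in Axin2+ and 10.01-fold in Axin2- libraries, and Rsad2 3.04-fold in Axin2+ and 4.10-fold in Axin2- libraries. Among the libraries labelled Axin2+ the least spread was that of Irf9 (1.05-fold, with 1.21-fold in Axin2- libraries) and Trim25 (1.08-fold in each fraction), and among those labelled Axin2- it was that of Ddx58 (1.29-fold in Axin2+ and 1.04-fold in Axin2- libraries). Beside these values, the summed macrophage markers were 3737, 2014 and 666 CPM in the Axin2+ libraries (mice 1, 2 and 3), against 216, 45.2 and 288 CPM in those labelled Axin2-, with mouse 2 the lowest in those labelled Axin2- only. The part of these cells in the spread was not tested.

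**Figure D3:**
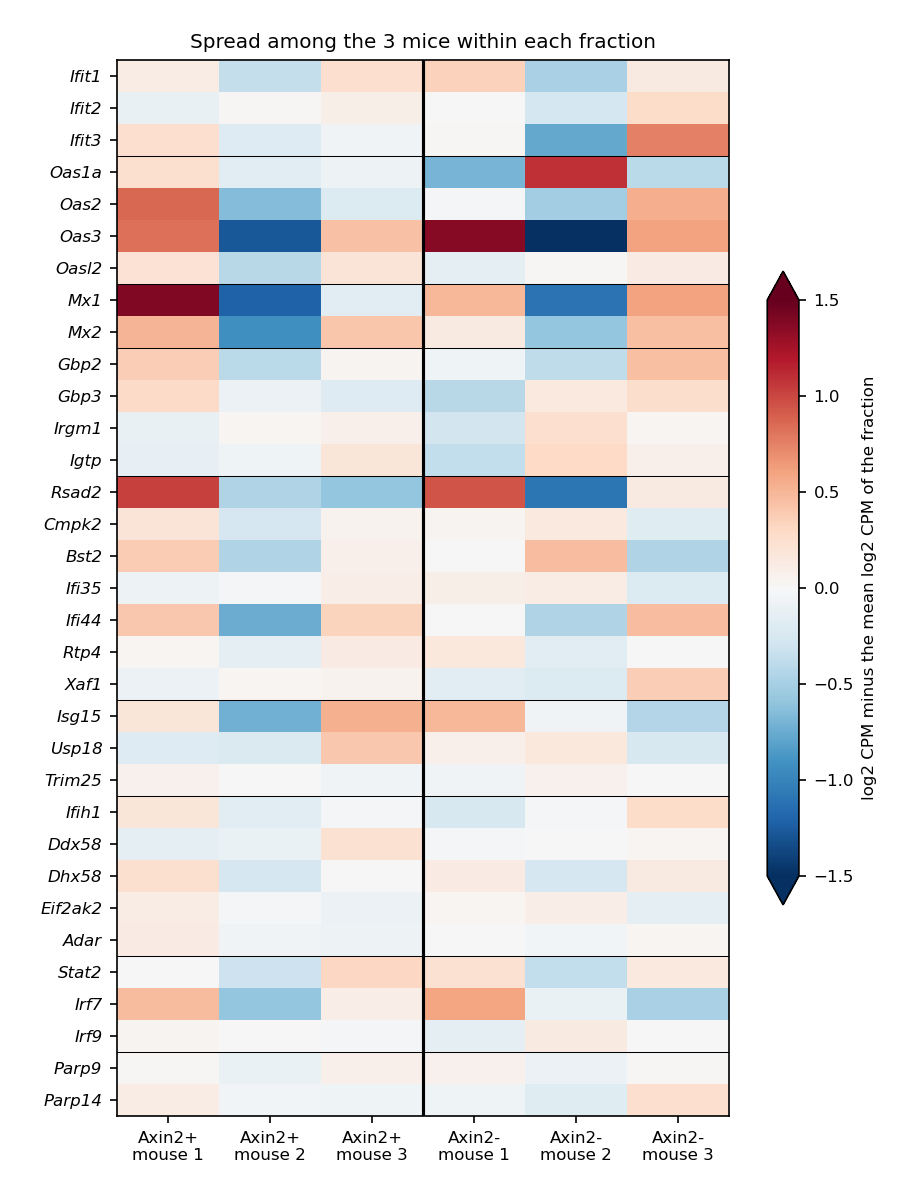
Deviation of each member's log2 CPM from the mean of its own fraction, by library, for the libraries labelled Axin2+ (left) and Axin2- (right); red is above and blue below the fraction's mean. The column of mouse 2 is blue for most members in the libraries labelled Axin2+, where it is the lowest for 20 of 33.

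Outside the 33 members, 113 further genes of the pathway were listed by function in 6 lists, of which 111 were found in the table and 95 tested. Of these, 25 passed (26.3%, beside 27.3% of all genes). In the libraries labelled Axin2+ 20 were higher and 5 lower, beside 14.5% and 12.8% of all genes. The higher pathway genes were 8 without the Axin2+ library of mouse 2 and 11 without that of mouse 1. They were 10 and 12 without the Axin2- library of mouse 1 or 3. Over all genes the higher ones became fewer too, from 2447 to 1491, 1914, 1839 and 1861 in the same order. The lower pathway genes were 2 or 3 without the Axin2+ library of mouse 2 or 3 or any 1 of the Axin2- libraries. Of all genes, 14.6% and 23.6% were called without those Axin2+ libraries, and 18%, 22.4% and 18.3% without those Axin2- libraries. With library size scaling, which called 28.6% of all genes, the lower pathway genes were 3.

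Hardly any interferon mRNA was counted. Of 17 ligand genes, 13 had 0 reads in all 6 libraries, with Ifnb1 and 10 Ifna genes among them, and 2 passed the filter on low counts. Ifne (interferon epsilon) had 35, 26 and 26 reads in the libraries labelled Axin2+ (0.526 ± 0.0673 CPM, SD, n = 3) and 0 reads in all 3 labelled Axin2-. Against a floor of 3 reads per library it was at least 9.15-fold higher in the libraries labelled Axin2+ (edgeR adjusted p = 0.0102), and it did not pass with the mouse as a block (0.0607). Ifng (interferon gamma) had 25 reads in the Axin2+ library of mouse 1 and 0 in the other two, against 41, 76 and 70 reads in the libraries labelled Axin2-. It did not pass (edgeR adjusted p = 0.169) and was called lower without the Axin2+ library of mouse 1 (0.00727). The T and NK cell markers, of cells known to make interferon gamma, fell as well, as given above; their part was not tested.

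Of 9 receptors and kinases, 4 rose and 1 fell. Jak2, the kinase bound to Ifngr2, had 298, 352 and 288 CPM in the libraries labelled Axin2+, against 116, 102 and 113 CPM in those labelled Axin2- (log2 fold change 1.5 ± 0.13 SE, edgeR adjusted p = 0.000501). Ifngr2 had 53.9, 50.2 and 39.1 CPM in Axin2+ libraries against 20.9, 18.8 and 23.0 CPM in Axin2- libraries (log2 fold change 1.19 ± 0.17 SE, edgeR adjusted p = 0.00274). The fractions overlapped for neither gene, and both calls held in all 13 alternative fits. Ifnlr1, the specific chain of the interferon lambda receptor (listed under its older symbol Il28ra), had 9.06, 11.0 and 10.3 CPM in Axin2+ libraries against 5.46, 5.44 and 3.60 CPM in Axin2- libraries (log2 fold change 1.07 ± 0.25 SE, edgeR adjusted p = 0.0201). It did not pass without the Axin2+ library of mouse 2 (0.0836) or 3 (0.0506). Its shared chain Il10rb had 58.7, 40.5 and 23.4 CPM in Axin2+ libraries against 15.3, 14.9 and 18.1 CPM in Axin2- libraries (log2 fold change 1.35 ± 0.32 SE, edgeR adjusted p = 0.0201). The adjusted p of Il10rb was 0.0501 with the mouse as a block and 0.0571 to 0.0633 without the Axin2+ library of mouse 2 or any 1 of the Axin2- libraries.

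Jak1, which serves all interferon receptors and was the only gene of that list to fall, had 237, 223 and 229 CPM in the libraries labelled Axin2+, against 348, 375 and 271 CPM in those labelled Axin2- (log2 fold change -0.53 ± 0.15 SE, edgeR adjusted p = 0.0372). Jak1 was not called with the mouse as a block (0.0624), with library size scaling (0.153), without any 1 of the Axin2+ libraries (0.0681 to 0.134) or without the Axin2- library of mouse 1 (0.126) or 2 (0.0785). The chains of the type I receptor were 93.8, 79.8 and 68.6 CPM in Axin2+ libraries against 68.2, 73.5 and 71.8 CPM in Axin2- libraries for Ifnar1, and 55.8, 43.2 and 34.6 CPM in Axin2+ libraries against 37.3, 36.3 and 39.5 CPM in Axin2- libraries for Ifnar2. Both overlapped and did not pass (log2 fold changes 0.18 and 0.24, edgeR adjusted p = 0.36 and 0.369), nor did Ifngr1 and Tyk2.

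The feedback inhibitors were the lower genes among 9 further STAT, IRF and feedback genes, of which 2 fell and 0 rose. Socs1, which blocks JAK kinases after interferon, had 7.18, 4.89 and 5.90 CPM in the libraries labelled Axin2+, against 20.7, 18.8 and 17.7 CPM in those labelled Axin2-. It fell by 1.67 on the log2 scale (SE 0.20, edgeR adjusted p = 0.00161) and was called in all 13 alternative fits. Socs3, which acts chiefly on receptors of the interleukin-6 family, had 186, 37.1 and 54.6 CPM in Axin2+ libraries against 471, 502 and 373 CPM in Axin2- libraries. It fell by 2.28 on the log2 scale (SE 0.58, edgeR adjusted p = 0.0272), with an adjusted p of 0.0574 to 0.0733 without the Axin2+ library of mouse 2 or 3 or any 1 of the Axin2- libraries.

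**Figure D4:**
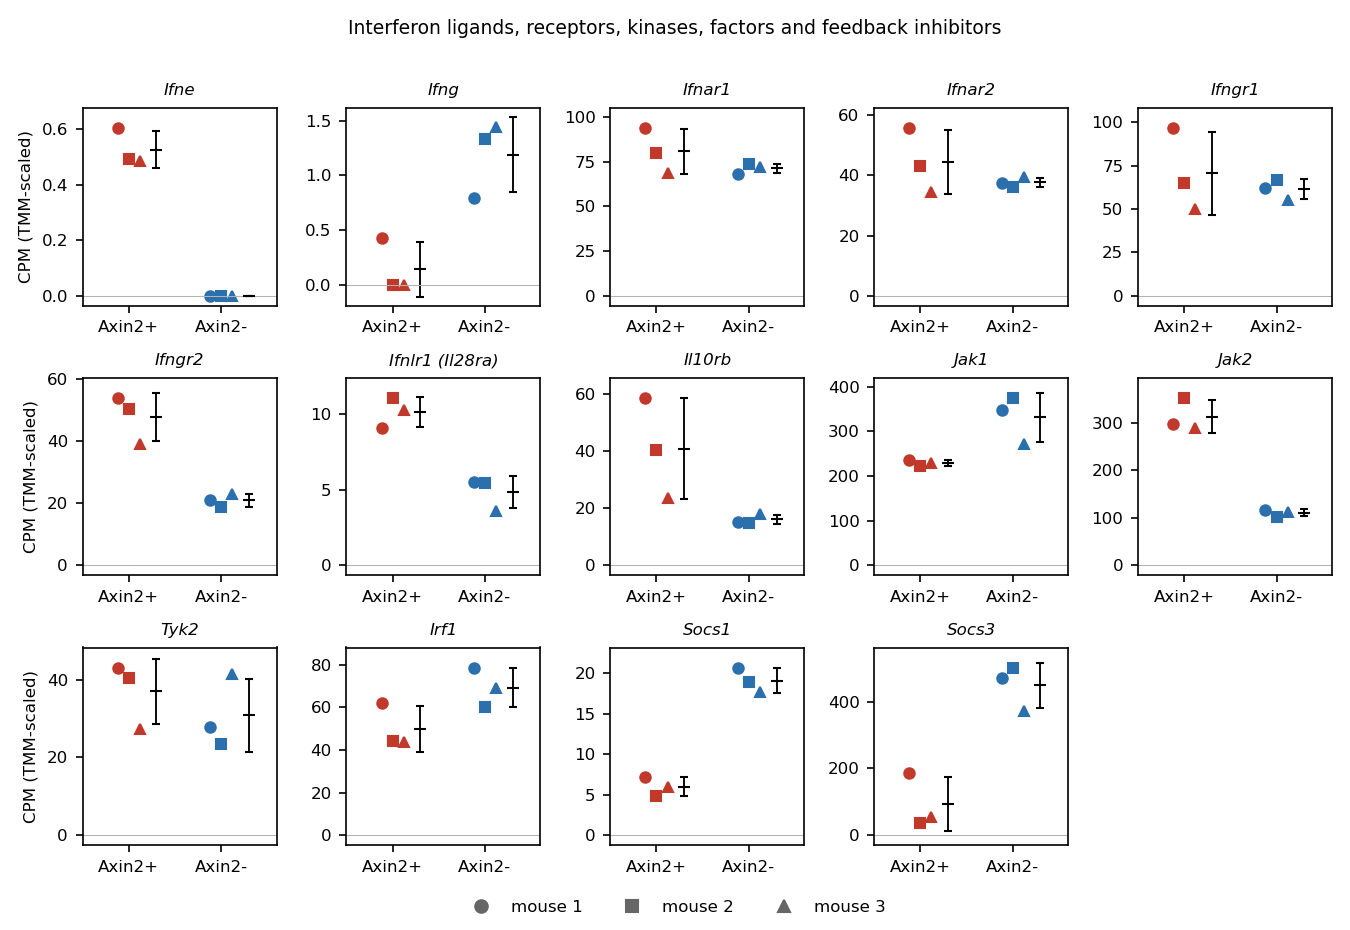
CPM of interferon ligands, receptor chains, kinases, factors and feedback inhibitors in each library labelled Axin2+ (red, left) and Axin2- (blue, right), with the mean and SD of 3 libraries in black and 1 symbol per mouse. Jak2 and Ifngr2 lie higher and Socs1 and Socs3 lower in the libraries labelled Axin2+ without overlap, while Ifnar1 and Ifnar2 overlap.

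Of 10 sensors and adaptors upstream of interferon, 4 rose and 0 fell. These were Tlr3, a receptor for double-stranded RNA (9.94 ± 1.52 CPM in Axin2+ libraries against 4.97 ± 0.989 CPM in Axin2- libraries, SD, n = 3 each; log2 fold change 1.0, edgeR adjusted p = 0.0262), and Zbp1, a sensor of Z-form nucleic acid (7.06 ± 2.32 CPM in Axin2+ libraries against 3.02 ± 0.528 CPM in Axin2- libraries; 1.23, adjusted p = 0.0358). The adaptor Myd88 (57.9 ± 12.2 CPM in Axin2+ libraries against 37.2 ± 4.89 CPM in Axin2- libraries; 0.64, adjusted p = 0.0378) and the RIG-I and MDA5 adaptor Mavs (54.6 ± 3.78 CPM in Axin2+ libraries against 39.3 ± 6.2 CPM in Axin2- libraries; 0.47, adjusted p = 0.0495) were the others. Myd88 did not pass with the mouse as a block (0.0645) or with upper quartile scaling (0.0556), nor did Mavs (0.0548 and 0.0684, and 0.0554 without the filter on low counts). Leaving out 1 library ended the call of Tlr3 in 4 of 6 cases (0.0552 to 0.0776, Axin2+ of mouse 1 or 2, Axin2- of mouse 1 or 3) and of Zbp1 in 5 of 6 (0.0744 to 0.104, all but Axin2+ of mouse 2). It ended that of Myd88 in 4 (0.0543 to 0.107, Axin2+ of mouse 2 or 3, Axin2- of mouse 2 or 3) and that of Mavs in 5 (0.0609 to 0.156, all but Axin2- of mouse 2).

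Of 42 further genes known to respond to type I interferon, 9 rose and 1 fell, with a median log2 fold change of 0.37 over the list. The 4 with the smallest p were called in all 13 alternative fits. Ifitm3, which blocks fusion of viruses in endosomes, had 238, 286 and 245 CPM in the libraries labelled Axin2+, against 107, 123 and 90.6 CPM in those labelled Axin2- (log2 fold change 1.26 ± 0.15 SE, edgeR adjusted p = 0.0015). Ly6e, a surface protein that alters virus entry, had 167, 166 and 160 CPM in Axin2+ libraries against 74.8, 85.5 and 55.0 CPM in Axin2- libraries (1.19 ± 0.17 SE, edgeR adjusted p = 0.00292). Epsti1 had 43.0, 29.6 and 25.3 CPM in Axin2+ libraries against 8.57, 3.84 and 7.76 CPM in Axin2- libraries (2.28 ± 0.35 SE, edgeR adjusted p = 0.00395), and Samd9l, a restrictor of translation, 66.1, 54.3 and 55.7 CPM in Axin2+ libraries against 42.0, 33.9 and 39.7 CPM in Axin2- libraries (0.61 ± 0.14 SE, edgeR adjusted p = 0.0185). All 4 were higher in each library labelled Axin2+ than in any labelled Axin2-. The other calls were Trim30a, Trim14, Sp100, Rnf213 and Slfn2 (higher) and Parp10 (lower). All 6 lost the call without the Axin2+ library of mouse 2 (edgeR adjusted p = 0.0562 to 0.156), and all but Sp100 also without at least 1 other library. With the mouse as a block Trim14 (0.051) and Parp10 (0.0852) were not called, nor was Parp10 with library size scaling (0.217) or without the filter on low counts (0.0702), nor Rnf213 with upper quartile scaling (0.0519).

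Of 23 tested genes known chiefly as targets of interferon gamma, 2 rose and 1 fell, with a median log2 fold change of 0.15. Tap2, a subunit of the peptide transporter for MHC class I, had 42.9, 43.2 and 40.3 CPM in the libraries labelled Axin2+, against 65.9, 67.3 and 64.1 CPM in those labelled Axin2-. It fell by 0.64 on the log2 scale (SE 0.10, edgeR adjusted p = 0.00468) and was called in all 13 alternative fits. The GTPases Ifi47 (5.54 ± 1.23 CPM in Axin2+ libraries against 2.28 ± 0.357 CPM in Axin2- libraries, SD, n = 3 each; log2 fold change 1.28, edgeR adjusted p = 0.0217) and Tgtp2 (6.04 ± 1.16 CPM in Axin2+ libraries against 2.40 ± 0.718 CPM in Axin2- libraries; 1.33, adjusted p = 0.0282) were higher in the libraries labelled Axin2+. Neither passed with the mouse as a block (0.0576 and 0.0626). Ifi47 did not pass without the Axin2+ library of mouse 1 (0.0683) or 2 (0.0559) or the Axin2- library of mouse 1 (0.065), and Tgtp2 not without any 1 library other than the Axin2- library of mouse 2 (0.0551 to 0.0724). Tgtp2 has a near-identical copy, Tgtp1, so its counts are uncertain.

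The choice by name did not use the promoter letters of the members. It did take known interferon-stimulated genes, and the ISRE is the element by which ISGF3 binds its targets. The share of promoters with it therefore describes the choice and is no result of these counts. The RefSeq promoter table (GRCm38.p6, 250 bases before to 50 bases after each start) holds 30 promoters of 25 of the 33 members. The ISRE core GAAA-NN-GAAA, searched on both strands and with overlapping matches counted, was found in 15 of these 30 promoters (50%), against 1131 of 32851 promoters in the table (3.44%). Promoters with 2 or more matches were 7 of 30 (23.3%) and 74 of all (0.225%). The GAS core TTC-NNN-GAA, which is its own reverse complement, was in 7 of 30 (23.3%), against 8.3% of all promoters. An ISRE and a GAS core overlapped each other in 1 member promoter, that of Bst2, and in 24 promoters of the whole table.

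By the result of the test, an ISRE core was in 2 of 6 higher members in the table (Oas1a and Eif2ak2, not Xaf1, Trim25, Adar or Irf9), 0 of 2 lower members and 13 of 17 members not called. The matches of Ddx58, Eif2ak2 and Ifih1 lay after the start, at 2, 18 and 32 bases past the first transcribed base, and that of Stat2 lay 222 bases before it. The others started within 160 bases before the start, as in Gbp3 (45 and 39 bases before the start), Irgm1 (30 and 24), Gbp2 (59) and Rsad2 (120). A match is a run of letters and not a measured binding site.

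**Figure D5:**
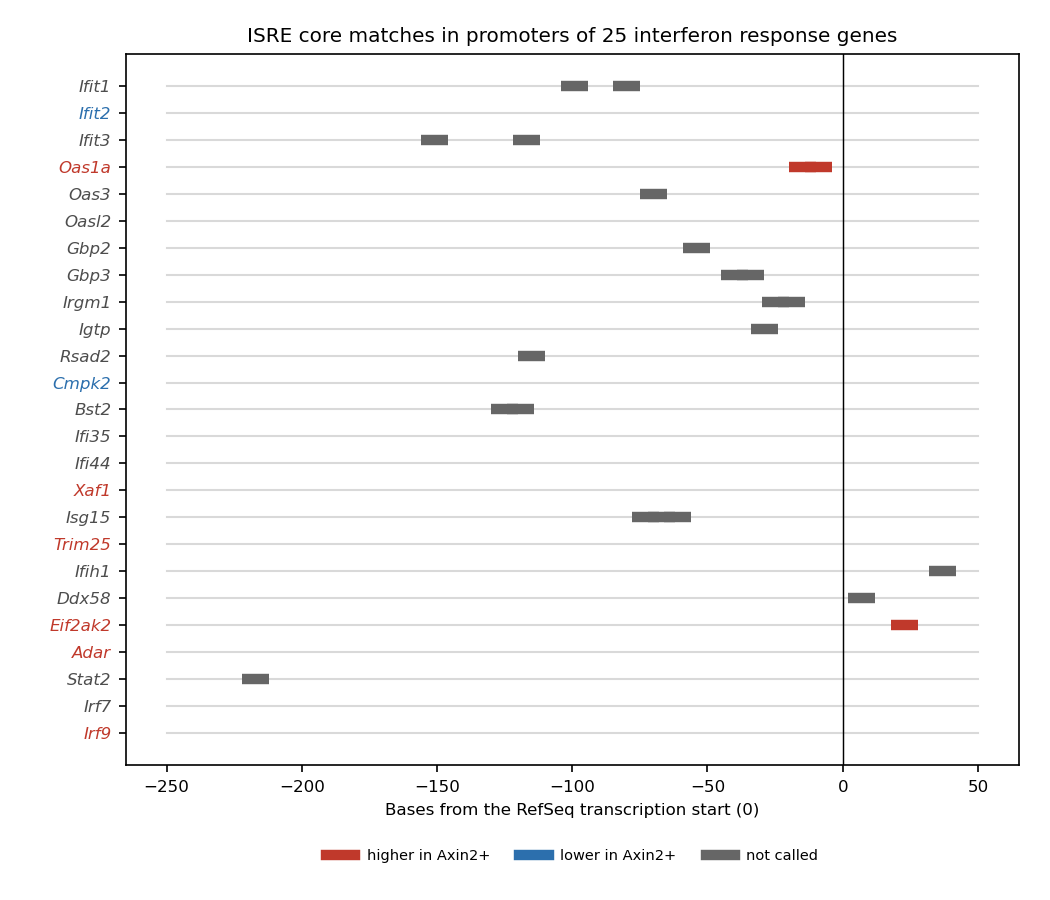
Position of each ISRE core match in the RefSeq promoters of the members, in bases from the start (0 is the first transcribed base, negative values lie before it); red marks members higher in the libraries labelled Axin2+, blue lower and grey not called. Most matches lie before the start, but so does most of the searched window (250 bases before to 50 bases after it), so no gathering is read from this. A match was found in 13 of 17 members not called, 2 of 6 higher and 0 of 2 lower members in the promoter table.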

How the data were processed

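For each of 6 libraries the authors deposited raw read counts by gene, as whole numbers. Per the submitters' processing notes, STAR 2.5.3a, featureCounts 1.5.3 and edgeR 3.22.5 were among the tools and mm10 was the build; neither annotation nor strand setting is given in the sources used here. The authors' deposited comparison table adds, per the file headers, a log2 fold change and log2 CPM for each gene, an F value (used as a score), a p-value and an FDR.

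Counts were tested in R 4.3.3 with edgeR 4.0.16: filterByExpr, TMM scaling and the robust quasi-likelihood F test between the fractions. The Benjamini-Hochberg adjustment covered all 16896 tested genes, and calls needed an adjusted p under 0.05. The fit was tried on simulated counts in which few genes changed, as many up as down. That trial does not check the scaling where many genes differ, nor the mouse block. DESeq2 1.42.0 served as an alternative. Coordinates and merged exon lengths are from GENCODE M21 (GRCm38, the assembly of mm10), where 13 members overlap some other gene and 6 (Igtp, Rtp4, Adar, Irf7, Irf9 and Parp9) overlap one that codes for protein. Promoter sequences are from RefSeq.

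The members and lists were chosen with earlier results of these data known. The rule for named genes takes all members, up to 4 called genes with the smallest p from each pathway list and up to 3 markers with the highest level per cell type. Axin2 checks the labels. Oas1b, Oas1c, Ifng, Jak1, Ifnar1, Ifnar2, Ifngr1, Tyk2 and the calls named without values were picked with their values in view. Of the 113 listed pathway genes 2 were not found in the table. Results for 1 further pathway gene and 1 further B cell marker are not reported here, and counts and sums over their lists leave them out.

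Libraries with the same number come from the same mouse, per the labels, which is the pairing used for the block. After subtracting the fraction means, the paired libraries had correlations over genes of 0.27 (mouse 1), 0.01 (mouse 2) and -0.07 (mouse 3), while libraries of different mice reached 0.25.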

Additional observations from a re-analysis of the deposited data

How the results depend on the processing

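The 13 alternative fits gave 429 log2 fold changes of members, of which 404 kept their side of the threshold, 6 passed newly, 19 lost the call and 0 changed direction while called. Calls of Ifit2, Oas1a, Oas2, Trim25 and Eif2ak2 held in all 13, and 21 members were called in no fit. The members called higher were 7, 9 with DESeq2, 9 with library size scaling, and 4 to 6 with 1 library left out. With DESeq2 11 members were called in either direction (33.3%, against 36.1% of all genes). The members called lower were 2, and 1 with library size scaling, 1 with the mouse as a replicate block and 1 to 2 with 1 library left out. The median log2 fold change of members was 0.17, 0.34 with library size scaling, and 0.14 to 0.28 with 1 library left out. Pathway calls were 20 higher, 24 with DESeq2, 23 with library size scaling, 14 with the mouse as a block and 8 to 19 with 1 library left out. Lower pathway calls were 5, with 6 under DESeq2, 3 under library size scaling and 2 to 6 with 1 library left out. The block ended the calls of Cmpk2 and Irf9, added that of Oas3 and changed no other member's call. Over all genes 4618 were called, 2544 without the Axin2+ library of mouse 2 (14.6% of genes and 18.2% of members). The causes were not tested. With 3 libraries a fraction, 2-fold differences of low members such as Mx1, Rsad2 and Oas3 are within the error.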
